A study of Mus musculus with 9 samples.

Results

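Glomerular endothelial genes were examined in podocytes sorted from diabetic and normal mice. They are 32 genes named for their use in blood vessel endothelium, and each was taken by its exact symbol on the array. All 32 were measured, among 18193 genes in all. Podocytes are epithelial cells on the outer face of the glomerular capillaries, whose inner face is lined by the endothelial cells. OVE26 mice develop type 1 diabetes early in life from a transgene that acts in pancreatic beta cells, and here they carry the podocyte eGFP transgene on the FVB strain (genotype OVE-GFP, diabetic, 3 to 4 months of age). The normal mice are FVB of the same age, and their genotype is given as wild type, so their labels do not say whether they carry eGFP. Magnetic beads perfused into the kidney were used to collect glomeruli, trypsin freed the cells, and the labels give fluorescence sorting for podocytes as the protocol of both groups. The labels do not name the promoter that drives eGFP. There was 1 array per mouse, with 5 OVE26 and 4 FVB arrays.

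Endothelial cells of the glomerulus are fenestrated and live on growth factors from the podocyte. Podocytes secrete VEGF-A, which acts on the receptor kinase KDR (VEGFR2), while FLT1 (VEGFR1) binds the same ligand and limits its supply. Angiopoietins act on the receptor kinase TEK (TIE2), with TIE1 as its partner and the phosphatase encoded by Ptprb (VE-PTP) as its brake. The ETS factors ERG and ETS1 and the SOX factors SOX7, SOX17 and SOX18 keep endothelial genes switched on.

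All values are log2 intensities of a gene's brightest probe set, and all differences are OVE26 minus FVB on that log2 scale. A probe set's intensity depends on its own sequence, so a gene is compared between arrays and not with another gene. Median log2 intensity over all probe sets lay between 5.07 and 5.13 on OVE26 arrays and between 5.08 and 5.15 on FVB arrays. Pearson's r between arrays, taken across probe sets that are not independent of each other, was 0.960 to 0.985 within OVE26, 0.980 to 0.989 within FVB and 0.964 to 0.984 between the groups. Xist exceeded the mean of 3 Y-linked genes on OVE26 2, 3 and 5 and FVB 2 and lay below it on the other arrays, and the labels do not give sex. OVE26 2 stood apart in proximal tubule markers, with a mean centred value of -2.04 where the other 8 arrays lay between -0.11 and 0.75. The labels list the arrays as separate mice, and p-values rest on the spread between them, which includes sorting and amplification.

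Promoter sequence is shown for 4 genes. Flt1, Emcn and Ehd3 were each highest on FVB 2 of all arrays, and Igfbp5 had the smallest p-value of the 32 genes. FVB 2 was the highest array for 14 of the 32, Kdr, Tek and Igfbp5 among them, so this trait does not single out the genes shown. The windows hold 250 bases before and 50 after a transcription start, from RefSeq on GRCm38.p6. They were searched on both strands for the ETS word AGGAAG and the SOX word ACAAT, and a match is printed in capitals.
Flt1, chr5:147725962-147726261, minus strand: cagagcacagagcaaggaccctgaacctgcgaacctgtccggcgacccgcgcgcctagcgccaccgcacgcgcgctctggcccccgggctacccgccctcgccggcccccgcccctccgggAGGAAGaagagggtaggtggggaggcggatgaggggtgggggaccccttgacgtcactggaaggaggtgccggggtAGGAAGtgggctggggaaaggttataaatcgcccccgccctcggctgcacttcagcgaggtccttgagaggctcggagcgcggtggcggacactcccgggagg
Emcn, chr3:137340828-137341127, plus strand: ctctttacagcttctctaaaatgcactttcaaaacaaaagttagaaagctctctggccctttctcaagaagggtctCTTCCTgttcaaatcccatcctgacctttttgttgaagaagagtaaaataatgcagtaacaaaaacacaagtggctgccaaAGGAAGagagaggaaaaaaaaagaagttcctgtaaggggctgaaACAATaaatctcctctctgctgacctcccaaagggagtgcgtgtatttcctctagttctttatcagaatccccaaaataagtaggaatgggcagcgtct
Ehd3, chr17:73804591-73804890, plus strand: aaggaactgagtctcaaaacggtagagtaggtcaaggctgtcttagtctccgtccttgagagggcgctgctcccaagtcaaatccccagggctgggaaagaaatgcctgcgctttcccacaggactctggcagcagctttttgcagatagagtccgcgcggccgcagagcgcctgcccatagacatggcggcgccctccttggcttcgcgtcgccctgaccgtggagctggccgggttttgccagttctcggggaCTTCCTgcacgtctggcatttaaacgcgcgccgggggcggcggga
Igfbp5, chr1:72874816-72875115, minus strand: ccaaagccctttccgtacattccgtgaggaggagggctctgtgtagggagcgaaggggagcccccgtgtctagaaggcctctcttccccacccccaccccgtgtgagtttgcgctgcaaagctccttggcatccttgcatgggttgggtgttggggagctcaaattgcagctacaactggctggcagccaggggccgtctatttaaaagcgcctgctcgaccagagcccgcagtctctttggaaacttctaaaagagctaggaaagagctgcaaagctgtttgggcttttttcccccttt

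The table held 19 windows of 15 of the 32 genes. Of these 19, 12 (63.2%) contained the ETS word on either strand, against 35.4% of all 32851 windows. The SOX word was in 6 of the 19 (31.6%), against 31.0% of all. Flt1 and Emcn held the ETS word at 2 places each and Ehd3 at 1. The windows of Igfbp5 and of Kdr held neither word, and that of Tek held the SOX word at 2 places and no ETS word. The words do not overlap each other in the sequences printed.

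Endothelial transcripts were measurable in every podocyte sort. As a level for genes not used in kidney, the 95th percentile of 39 olfactory receptor genes was taken on each array, which lay between 4.08 and 4.52 on OVE26 arrays and between 4.31 and 4.45 on FVB arrays. On all 9 arrays 28 of the 32 genes were above it. This is a low bar, under the median of all probe sets on every array (5.07 to 5.15), and the share of all genes above it was not counted. Nos3 and Robo4 were above it on 7 arrays and Sox18 on 8. Lyve1, a hyaluronan receptor of lymphatic endothelium, was above it on 0 arrays, at 3.75 ± 0.20 in OVE26 (SD, n = 5) and 3.73 ± 0.11 in FVB (SD, n = 4). More or fewer endothelial cells in a sort and more or less RNA per cell cannot be told apart in such bulk samples.

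No endothelial gene passed the group comparison, and 5 of 32 had an unadjusted p under 0.05. By limma with Benjamini-Hochberg adjustment over 18193 genes, 0 of 32 passed at an adjusted p under 0.05, where 0.605% of all genes did. Of all genes 0.473% passed as higher and 0.132% as lower. At an adjusted p under 0.1 again 0 of 32 passed, against 2.06% of all genes, and with array weights 0 of 32, against 2.18%. The 5 at an unadjusted p under 0.05 were 15.6% of the 32, against 15.1% of all genes. Of these 4 had higher values in OVE26 (Plvap, Gpihbp1, Nos3 and Vwf), where 9.03% of all genes did, and 1 had lower values (Igfbp5), where 6.07% did. The groups did not overlap for 3 of 32 genes, or 9.38%, against 6.26% of all genes. OVE26 was the higher group for Plvap and Gpihbp1, as for 3.64% of all genes, and the lower group for Igfbp5, as for 2.62%. The balance of directions depended on the fit. With sex (Xist minus Y-linked genes) as a covariate 10 of 32 had an unadjusted p under 0.05 by limma, against 14.1% of all genes. Of these 2 were higher (Plvap and Gpihbp1), where 8.36% of all genes were, and 8 were lower, where 5.70% were. The 8 were Igfbp5, Cd34 (-0.86), Ehd3 (-0.87), Kdr (-0.67), Ets1 (-0.57), Tek (-0.49), Emcn (-0.62) and Sox18 (-1.39), and Nos3 and Vwf were not among the 10. Arrays with Xist above the Y-linked genes included OVE26 3 and FVB 2, the highest of their groups for 20 and 24 of the 32 genes. The sex covariate can thus take variation shared by many of the 32 genes out of their spread. For that reason the shares in this fit cannot be set against each other. With group as the only term, the median difference was -0.10 over the 32 genes and 0.01 over all genes, with 13 genes above and 19 below 0.

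**Figure D1:**
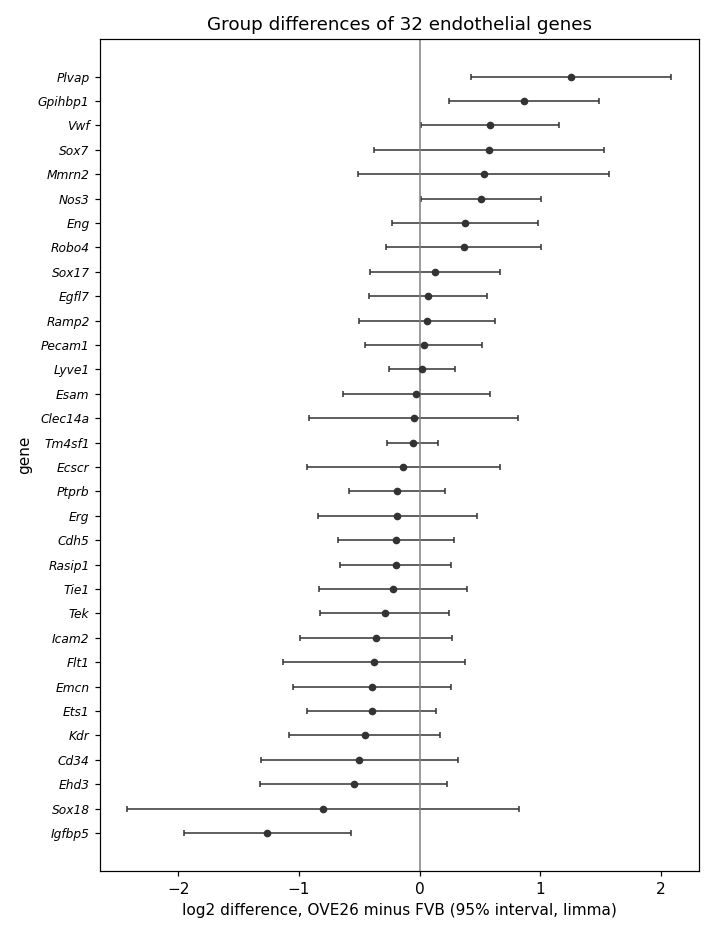
Difference in log2 intensity, OVE26 minus FVB, of the 32 endothelial genes (points) with limma's 95% interval (bars), sorted by size. The intervals of Plvap, Gpihbp1, Vwf and Nos3 lie above 0 and that of Igfbp5 lies below 0, before adjustment over 18193 genes.

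The vascular growth factor receptors did not separate the groups. Kdr, the main VEGF receptor of endothelium, read 9.77, 9.84, 10.77, 10.03 and 10.57 on OVE26 arrays 1 to 5 and 10.30, 11.22, 10.15 and 10.95 on FVB arrays 1 to 4. OVE26 3 and OVE26 5 lay inside the FVB range and the other 3 OVE26 arrays below it. The difference was -0.46 (SE 0.28, limma adjusted p = 0.490), with a 95% interval of -1.08 to 0.16. Flt1, which encodes the decoy-like VEGFR1, read 7.52, 7.13, 8.71, 7.77 and 8.15 on OVE26 arrays and 8.03, 8.93, 7.61 and 8.37 on FVB arrays. The groups overlapped widely, and the difference was -0.38 (limma adjusted p = 0.665). Its 4 probe sets all gave a value below 0, between -0.45 and -0.17.

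Tek, the angiopoietin receptor TIE2, read 8.57, 9.02, 9.65, 8.88 and 9.16 in OVE26 and 9.04, 9.79, 8.95 and 9.60 in FVB. OVE26 3 was again the highest OVE26 array and OVE26 1 the lowest. The difference was -0.29 (SE 0.24, limma adjusted p = 0.635), with a 95% interval of -0.83 to 0.25. Its partner Tie1 differed by -0.22 (adjusted p = 0.780) and the phosphatase gene Ptprb by -0.19 (adjusted p = 0.696) by limma. Eng, the TGF-beta co-receptor endoglin, differed by 0.38 (limma adjusted p = 0.573) and Robo4, a guidance receptor that steadies vessels, by 0.37 (limma adjusted p = 0.617). Ramp2, the subunit that makes the adrenomedullin receptor, differed by 0.06 and Clec14a, an endothelial lectin-like receptor, by -0.05. Of the 9 receptor genes 3 lay above 0 and 6 below.

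None of the 8 junction and adhesion genes separated the groups by its brightest probe set. Pecam1 (CD31), an adhesion protein of all endothelium, read 8.49, 8.12, 8.49, 8.49 and 8.57 in OVE26 and 8.49, 8.96, 7.72 and 8.43 in FVB. OVE26 arrays sat inside the span of the FVB arrays, and the difference was 0.03 (SE 0.22, limma adjusted p = 0.970). Cdh5, which encodes the junction cadherin VE-cadherin, read 7.26, 7.54, 8.11, 7.64 and 7.58 in OVE26 and 7.67, 8.24, 7.31 and 8.05 in FVB. The difference was -0.19 (limma adjusted p = 0.749), while its other probe set gave 0.22, so the direction was not settled. Emcn, the sialomucin endomucin of capillaries and veins, read 9.18, 9.76, 10.51, 9.90 and 10.33 in OVE26 and 9.98, 10.77, 9.85 and 10.72 in FVB. Its difference was -0.40 (limma adjusted p = 0.592), and again OVE26 1 was lowest and FVB 2 highest.

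Cd34, a sialomucin of capillary endothelium, differed by -0.50 (adjusted p = 0.581), and Icam2, a leukocyte ligand at endothelial junctions, by -0.36 (adjusted p = 0.612) by limma. Esam, a junction immunoglobulin, differed by -0.03 and Ecscr, a regulator of endothelial movement, by -0.14. Tm4sf1, a membrane protein of endothelium and other cells, was the steadiest of the 32, with a range of 0.25 over 9 arrays and a difference of -0.06 (limma adjusted p = 0.843). Its other 2 probe sets gave 0.35 and 0.49, and on each of them every OVE26 array lay above every FVB array. Their unadjusted p was 0.0217 and 0.0152, and their p adjusted over all probe sets was 0.253 and 0.226, by limma. Of these 8 genes 1 lay above 0 and 7 below, but Cdh5 and Tm4sf1 lay above 0 with the mean of their probe sets.

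Transcription factor genes showed no shared direction. Ets1 read 8.95, 9.05, 9.93, 8.64 and 9.28 in OVE26 and 9.41, 9.77, 9.28 and 9.80 in FVB. OVE26 3 was the highest of all 9 arrays and the other 4 OVE26 arrays were below the lowest FVB array, OVE26 5 by less than the printed digits show, for a difference of -0.40 (SE 0.24, limma adjusted p = 0.485). All 4 of its probe sets lay below 0, down to -0.67. Erg differed by -0.19 (limma adjusted p = 0.837). Sox7 differed by 0.57 (adjusted p = 0.591), Sox17 by 0.13 (adjusted p = 0.868) and Sox18 by -0.80 (adjusted p = 0.673) by limma. The second Sox7 probe set gave 0.59, with every OVE26 array above every FVB array. Its unadjusted p was 0.00534, and its p adjusted over all probe sets was 0.155, by limma. The Sox18 value rests on OVE26 4, which read 3.91 while the other OVE26 arrays read 6.96 to 7.84, and without it the difference was -0.09 (limma adjusted p = 0.928).

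Of the 7 genes grouped here under vessel beds or specialised endothelium, Plvap, Gpihbp1, Nos3 and Vwf held 4 of the 5 smallest p-values. The grouping was chosen here and was not tested as a set. Its members Ehd3 (-0.55), Rasip1 (-0.20) and Lyve1 (0.02) did not have an unadjusted p under 0.05 by limma. Plvap encodes the diaphragm protein of fenestrae and caveolae, which is prominent in peritubular capillaries and scarce in mature glomerular endothelium. It read 6.68, 6.86, 7.96, 7.28 and 6.72 in OVE26 and 6.27, 6.40, 4.72 and 5.99 in FVB. All 5 OVE26 arrays lay above all 4 FVB arrays, narrowly so for OVE26 1 and OVE26 5 against FVB 2. The difference was 1.25 (SE 0.37), or 2.39-fold, with an unadjusted p of 0.00727 and an adjusted p of 0.151 by limma. FVB 3 was the lowest array by more than 1 log2 unit, and without it the difference was 0.88 (limma adjusted p = 0.286).

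Gpihbp1, the capillary protein that carries lipoprotein lipase to the vessel lumen, read 6.06, 5.89, 6.93, 7.03 and 5.92 in OVE26 and 5.36, 5.78, 5.11 and 5.73 in FVB. OVE26 3 and OVE26 4 were well above the rest, and the other 3 OVE26 arrays were just above the highest FVB array. The difference was 0.87 (SE 0.28), or 1.83-fold, with an unadjusted p of 0.0111 and an adjusted p of 0.180 by limma. Vwf, which encodes the clotting protein von Willebrand factor of larger vessels and platelets, read 6.002, 6.46, 5.16, 6.34 and 6.05 in OVE26 and 5.57, 5.57, 4.96 and 5.56 in FVB. Of the OVE26 arrays 4 were above every FVB array, and OVE26 3, the highest OVE26 array for most endothelial genes, was the lowest of its group. The difference was 0.58 (limma unadjusted p = 0.0471, adjusted p = 0.324). Pf4 and Gp9, platelet genes, differed by 0.85 (adjusted p = 0.381) and -0.24 (adjusted p = 0.408) by limma, and their part in the Vwf value was not tested.

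Nos3, the endothelial nitric oxide synthase, read 5.19, 4.75, 4.77, 4.96 and 4.90 in OVE26 and 3.72, 4.96, 4.29 and 4.64 in FVB. FVB 1 and FVB 3 were below the olfactory receptor level of their arrays, and FVB 2 reached the OVE26 values. The difference was 0.51 (limma unadjusted p = 0.0452, adjusted p = 0.319), and without FVB 1 it was 0.29 (limma adjusted p = 0.597). Rasip1, a Rap1 effector needed for vessel lumens, differed by -0.20 (limma adjusted p = 0.721).

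Ehd3, a membrane-trafficking gene that in kidney marks glomerular endothelium, ran the other way to Plvap. It read 7.92, 8.60, 9.45, 8.17 and 8.95 in OVE26 and 8.87, 9.80, 8.49 and 9.49 in FVB. OVE26 1 and OVE26 4 were below all FVB arrays, and the other 3 were inside the FVB range. The difference was -0.55 (SE 0.35, limma adjusted p = 0.511), and its other probe set gave -0.39.

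Among the secreted products, Igfbp5 had the smallest p of the 32. It encodes a binding protein of insulin-like growth factors that is laid down in matrix and is made by several cell types beside endothelium. It read 9.92, 11.02, 10.78, 9.74 and 11.22 in OVE26 and 11.83, 12.07, 11.44 and 11.85 in FVB. Every OVE26 array was below every FVB array, with OVE26 1 and OVE26 4 lowest. The difference was -1.26 (SE 0.31), or 0.417 of the FVB level, with an unadjusted p of 0.00226 and an adjusted p of 0.103 by limma. Its second probe set gave -1.08. With the sex covariate Igfbp5 fell by 1.57 (limma adjusted p = 0.0269), the only 1 of the 32 to pass in that fit, where 0.225% of all genes did. Egfl7, a secreted endothelial matrix protein that hosts a microRNA, differed by 0.07 (adjusted p = 0.936) and Mmrn2, an endothelial matrix protein that binds CLEC14A, by 0.53 (adjusted p = 0.662) by limma.

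**Figure D2:**
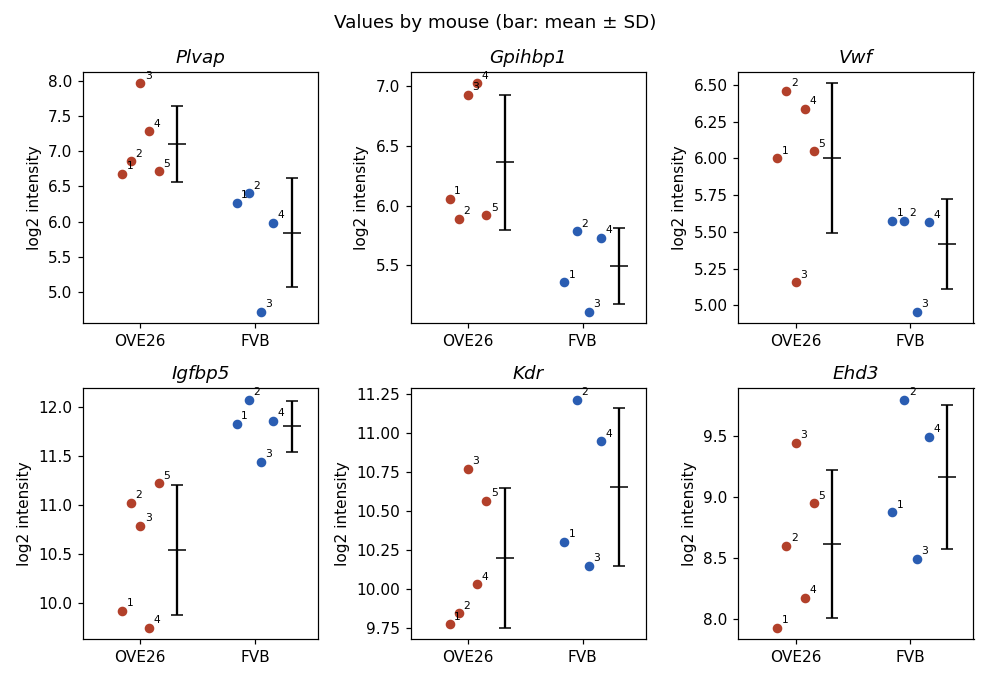
Log2 intensity of 6 endothelial genes by mouse, OVE26 (5 arrays, red) left of FVB (4 arrays, blue), each point numbered by mouse, with the group mean and SD as a bar. Plvap and Gpihbp1 lie higher and Igfbp5 lower on all OVE26 arrays than on any FVB array, while Vwf, Kdr and Ehd3 overlap.

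The endothelial genes varied from mouse to mouse more than most genes did. Their median SD was 0.51 in OVE26 and 0.48 in FVB, against 0.25 and 0.19 over all genes, and the median standard error of their differences was 0.28, against 0.16. Much of this variation was shared. Among FVB arrays FVB 2 was the highest for 24 of 32 genes and FVB 3 the lowest for 23. Among OVE26 arrays OVE26 3 was the highest for 20 and OVE26 1 the lowest for 18. All 32 genes were higher on FVB 2 than on FVB 3, by a median of 0.88, where 42.6% of all genes were higher. On OVE26 3, 29 of 32 were higher than on OVE26 1, by a median of 0.97, where 44.5% of all genes were higher. These array pairs were chosen after the values were seen.

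**Figure D3:**
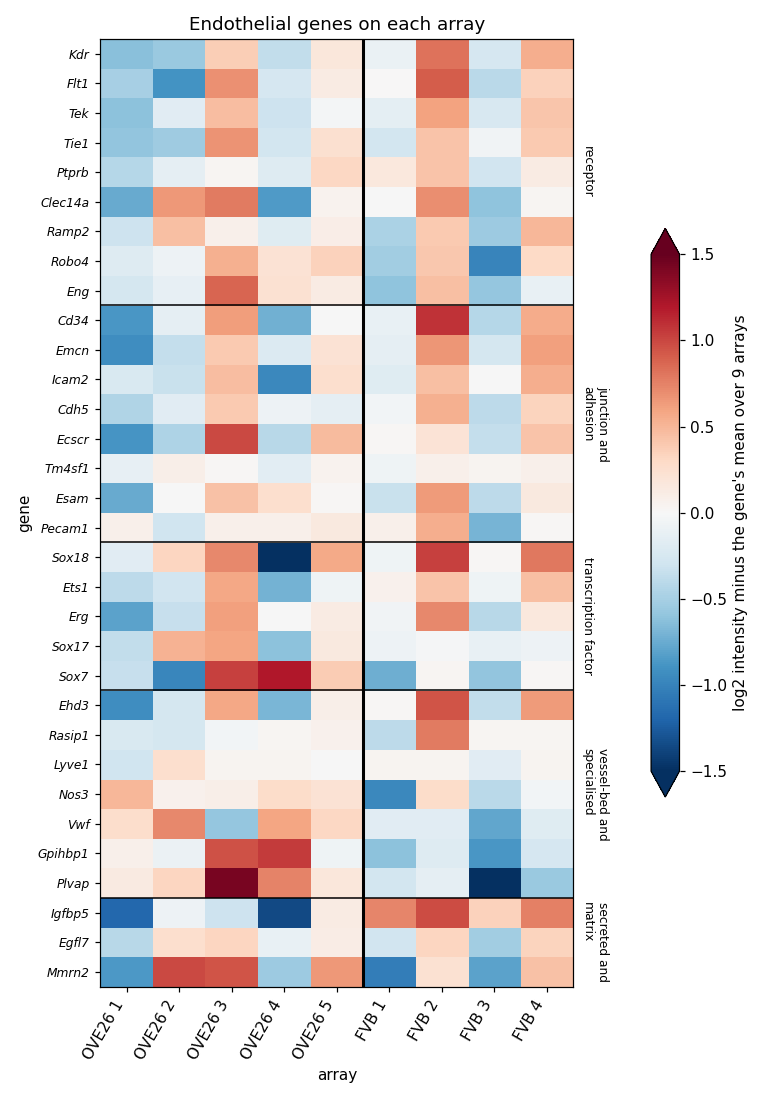
Log2 intensity of each endothelial gene minus its mean over 9 arrays, by gene (rows, grouped by role) and array (columns, OVE26 left of the vertical line and FVB right of it); the colour scale ends at 1.5 in either direction, and 2 values lie beyond it. OVE26 3, FVB 2 and FVB 4 are mostly above the gene means and OVE26 1 and FVB 3 mostly below. Plvap and Gpihbp1 are higher and Igfbp5 is lower on every OVE26 array than on any FVB array. Within the groups Plvap still follows these arrays, highest on OVE26 3 and FVB 2 and lowest on OVE26 1 and FVB 3. Igfbp5 does so within FVB.

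Averaged over the 32 genes, the centred value was -0.42, -0.06, 0.46, -0.23 and 0.16 on OVE26 arrays 1 to 5 and -0.20, 0.46, -0.41 and 0.24 on FVB arrays 1 to 4. The lowest and highest mice of each group thus lay about equally far apart, and the groups covered the same span. The 60 other endothelial genes, none of them among the 32, followed the same order within OVE26 except that OVE26 2 was below OVE26 4, and the same order in FVB. Their mean centred value was 0.48 on OVE26 3 and -0.24 on OVE26 1, and 0.27 on FVB 2 and -0.40 on FVB 3. Mesangial and mural markers, which mark the pericyte-like cells between the capillaries, were also highest on OVE26 3 (0.51) and FVB 2 (0.09) and lowest on OVE26 1 (-0.27) and FVB 3 (-0.28). Podocyte markers were lowest in FVB on FVB 2 (0.04) and highest on FVB 3 (0.36), and in OVE26 lowest on OVE26 4 (-0.31) and highest on OVE26 1 (0.03). Arrays with Xist above the Y-linked genes had endothelial means of -0.06, 0.46 and 0.16 in OVE26 and 0.46 in FVB, and the others -0.42 and -0.23 in OVE26 and -0.20, -0.41 and 0.24 in FVB.

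**Figure D4:**
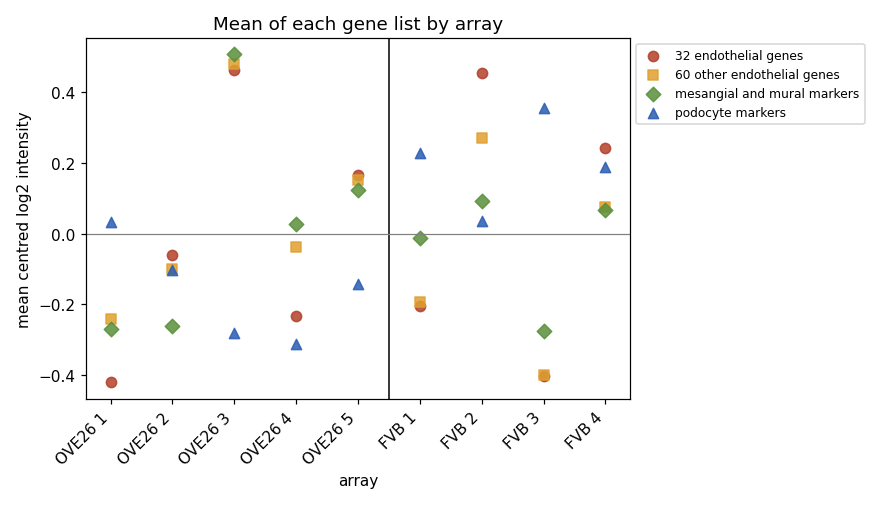
Mean centred log2 intensity of 4 gene lists on each array, OVE26 left of the vertical line and FVB right of it. The 32 endothelial genes (circles) and the 60 other endothelial genes (squares) lie on the same side of 0 on all 9 arrays, mesangial markers (diamonds) are highest on OVE26 3, and podocyte markers (triangles) are highest on FVB 3.

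Each gene was also set against the other endothelial genes on the same array, as a description with no test. After subtracting the mean of the other 31 genes, the groups did not overlap for 6 of 32 genes. With the mean of the 32 subtracted the share of all genes was 2.34%, but the shares cannot be set against each other, because the subtraction takes shared variation out of the 32 genes and adds it to genes that lack it. Plvap lay between 0.01 and 1.01 in OVE26 and between -1.46 and -0.07 in FVB. Gpihbp1 lay between -0.23 and 1.32 in OVE26 and between -0.67 and -0.43 in FVB. Igfbp5 lay between -1.16 and -0.02 in OVE26 and between 0.53 and 0.96 in FVB. Kdr lay between -0.51 and 0.00 in OVE26 and between 0.11 and 0.37 in FVB. Emcn and Tek were likewise lower on all OVE26 arrays, by means of 0.37 and 0.26. The genes share 1 set of arrays, and the measure was chosen after the values were seen.

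In a fit with the mean of the 60 other endothelial genes as a covariate, also chosen after the data had been seen, 2 of 32 genes passed by limma, where 0.632% of all genes did. Kdr fell by 0.64 (adjusted p = 0.0489) and Ehd3 fell by 0.77 (adjusted p = 0.0459). Plvap differed by 1.06 (adjusted p = 0.114), Gpihbp1 by 0.76 (adjusted p = 0.196) and Igfbp5 by -1.37 (adjusted p = 0.0730) in the same limma fit. The calls of Kdr and Ehd3 were made in this fit alone. At an unadjusted p under 0.05 were 14 of 32, against 15.0% of all genes, with 3 higher, where 8.99% of all genes were, and 11 lower, where 6.06% were. The covariate takes variation shared with the 32 genes out of their spread, so these shares too cannot be set against each other.

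Among the 60 other endothelial genes 0 passed by limma and 12 had an unadjusted p under 0.05 (6 higher and 6 lower). These were 20% of them against 15.1% of all genes, and the median difference was 0.04. The list was chosen with earlier results of these data known, so the shares are a description and not a test. The 4 of smallest p were Sele, Fabp4, Heg1 and Icam1. Sele, the leukocyte-binding E-selectin made by activated endothelium, differed by 2.79 (SE 0.64, adjusted p = 0.0837), at 8.22 ± 1.16 in OVE26 (SD, n = 5) and 5.43 ± 1.07 in FVB (SD, n = 4) by limma. Over the 9 fits that each left out an array the Sele difference was 2.49 to 3.33 (limma adjusted p = 0.0237 to 0.243), and it passed in 1 of them, without FVB 2. Icam1, an adhesion protein induced on endothelium and epithelium by inflammation, differed by 1.66 (limma adjusted p = 0.180). Over the same 9 fits it differed by 1.32 to 2.11 (limma adjusted p = 0.0430 to 0.385) and passed in 1, without OVE26 2. Fabp4, a fatty acid carrier of capillary endothelium, differed by 1.34 (adjusted p = 0.171) and Heg1, a junction receptor, by -0.87 (adjusted p = 0.175) by limma.

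Secreted and membrane ligands with roles in vessels were counted too, some of which act on receptors outside the 32 genes. Of 34 measured, 2 (5.88%) rose and 0 fell by limma, against 0.605% of all genes called. An unadjusted p under 0.05 was found for 10 (29.4%, against 15.1% of all genes), 9 of them higher, with a median difference of 0.16. This list was likewise chosen with earlier results of these data known, so its shares are a description and not a test. Sema3c, a secreted semaphorin that acts through neuropilins and plexins, rose by 2.34 (SE 0.26, limma adjusted p = 0.00978), at 6.81 ± 0.47 in OVE26 (SD, n = 5) and 4.47 ± 0.38 in FVB (SD, n = 4). Without FVB 3 the difference was 2.32 (limma adjusted p = 0.0520), and with the mean of probe sets it was 1.71 (limma adjusted p = 0.0235). The FVB mean of Sema3c was close to the olfactory receptor levels of the FVB arrays (4.31 to 4.45). Angptl4, a lipoprotein lipase inhibitor, rose by 0.86 (limma adjusted p = 0.0403) and kept its call in 2 of 9 fits that each dropped an array (OVE26 2 or FVB 2). Sema3a, a guidance protein of podocytes, differed by 1.01 (adjusted p = 0.112) and Edn1, the vasoconstrictor endothelin, by 0.67 (adjusted p = 0.120) by limma. The mean of Sema3a was 4.24 in OVE26, within the span of the olfactory receptor levels, and 3.23 in FVB, below them. Over the 9 fits with an array left out Sema3a differed by 0.77 to 1.28 (limma adjusted p = 0.0158 to 0.270) and passed in 1, without FVB 2, and with the mean of probe sets it differed by 0.49.

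Markers of other cells, also chosen with earlier results of these data known, were read beside these genes as a description and not a test. Over all genes 0.605% passed, and 15.1% had an unadjusted p under 0.05 by limma (9.03% higher and 6.07% lower). Of 13 podocyte markers 1 (7.69%) fell, Tdrd5 by 0.94 (limma adjusted p = 0.0462), a call kept in 1 of 9 fits that each dropped an array. At an unadjusted p under 0.05 by limma were 7 (53.8%), all 7 lower. The median difference of the 13 was -0.39, and their summed intensity was between 35228 and 44510 in OVE26 and between 42157 and 49010 in FVB. Lmx1b, Kirrel and Foxd1, podocyte genes, differed by -0.65, -0.56 and -0.51 and did not pass. All 13 were above the olfactory receptor level on every array. Of 13 mesangial and mural markers 0 passed by limma (3, or 23.1%, at an unadjusted p under 0.05). Their summed intensities were between 4653 and 7418 in OVE26 and between 4444 and 8814 in FVB. The smallest p-values were those of Rgs5, a pericyte gene (1.60), Ptn, a growth factor (-0.66), and the smooth muscle genes Tagln (0.67) and Acta2 (0.78).

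Of 12 distal tubule and collecting duct markers 3 (25%, against 0.605% of all genes) rose by limma. They were Fxyd4 (by 2.40), Atp6v0d2 (by 2.88) and Slc26a4 (by 2.14), and Hsd11b2 differed by 2.27 (limma adjusted p = 0.0516). With 1 array left out the limma adjusted p of Fxyd4 was 0.00736 to 0.0401. That of Atp6v0d2 was 0.0129 to 0.101 and that of Slc26a4 0.0154 to 0.133, so these calls were not kept in every such fit. At an unadjusted p under 0.05 by limma were 10 of the 12 (83.3%, against 15.1% of all genes). All 10 were higher, where 9.03% of all genes were. The median difference of the 12 was 1.58, with summed intensities between 4842 and 9202 in OVE26 and between 1877 and 6933 in FVB. Of 14 proximal tubule markers 0 passed (1, or 7.14%, at an unadjusted p under 0.05 by limma), with a median difference of 0.01. Those of smallest p were Cyp4b1, Kap, Aqp1 and Pck1, at differences of -0.997, -2.37, 0.45 and 1.19. Of 13 macrophage markers 0 passed by limma and 7 (53.8%, against 15.1% of all genes) had an unadjusted p under 0.05. Of these 6 were higher, where 9.03% of all genes were. Mrc1, named after its value was seen, was lower at -1.35, where 6.07% of all genes were lower. The median difference of the 13 was 0.61, with summed intensities between 602 and 1710 in OVE26 and between 758 and 1024 in FVB. Cd74, Tyrobp, C1qb and Adgre1 were the macrophage genes of smallest p, at differences of 1.28, 1.42, 2.30 and 0.61. Only 5 of the 13 macrophage markers were above the olfactory receptor level on every array. Adgre1, at means of 3.15 in OVE26 and 2.54 in FVB, was under that level, as was C1qb in FVB at a mean of 2.99. OVE26 3 and OVE26 4, the highest arrays for Plvap and Gpihbp1, were also the highest for the macrophage list, at mean centred values of 0.67 and 0.52. The part of these cells in the values of Plvap, Gpihbp1, Sele and Icam1 was not tested. Of 6 lymphatic endothelial markers 0 passed by limma (1, or 16.7%, at an unadjusted p under 0.05). Prox1, the factor that defines lymphatic endothelium, was at 3.83 ± 0.91 in OVE26 (SD, n = 5) and 3.30 ± 0.58 in FVB (SD, n = 4). Mmrn1, Pdpn and Flt4, the other lymphatic genes of smallest p, differed by 0.35, 0.10 and 0.21. Prox1 and Flt4 also stand in the list of 60 other endothelial genes. Of 9 platelet and red cell markers 0 passed by limma (1, or 11.1%, at an unadjusted p under 0.05). Alas2 and Slc4a1, listed here as red cell genes, differed by -0.50 and 1.38, and the part of other cells in the Slc4a1 value was not tested.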

How the data were processed

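The authors deposited 1 linear intensity per probe set and array, a scale read here from the size of the values. RMA and Partek are named per the submitters' processing notes, without versions or settings. Of 45101 probe sets 64 controls were left out. By the platform annotation 34945 probe sets carry 1 gene symbol, while 932 carry more than 1 and 9160 carry no symbol. Log2 of the deposited values was taken, and the brightest single-symbol probe set over 9 arrays stood for each of 18193 genes. Of the 32 endothelial genes 15 have several probe sets, which gave 1 direction in 11.

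Groups were compared with limma 3.58.1 in R 4.3.3 (lmFit, eBayes, group as the only term, 2-sided, Benjamini-Hochberg over all genes, threshold 0.05), tested on simulated data. The members and lists were chosen with earlier results of these data known. All 32 genes are named, with values on every array for 8 chosen genes and the 8 of smallest p. From each other list the called genes and the 4 of smallest p are named, plus Mrc1. Lists carry no set test. The alternatives tried were other probe set rules, scalings, variance models, covariates and left-out arrays. The number of arrays limits the precision.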

Additional observations from a re-analysis of the deposited data

Results flagged for a closer look

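A sample far from the others of its group was found in 4 of 64 comparisons of a gene within a group, and chance gives about 1 in 20. Sox18 read 3.91 on OVE26 4, below the olfactory receptor level of that array, where the next lowest OVE26 array read 6.96. Pecam1 read 8.12 on OVE26 2, where the other OVE26 arrays read 8.49 to 8.57, with an identical 8.49211 on OVE26 1, 3 and 4. Vwf read 4.96 on FVB 3, where the other FVB arrays read 5.56 to 5.57, with an identical 5.57485 on FVB 1 and 2. Lyve1 read 3.57 on FVB 3, where the other FVB arrays all read 3.78, a level under background for this gene. Identical values make the remaining array look further apart, and the rate of 1 in 20 does not allow for them.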

How the results depend on the processing

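No endothelial gene passed under 20 of 22 alternatives; 1 (Igfbp5) passed with the sex covariate and 2 (Kdr and Ehd3) with the other endothelial genes as a covariate, the alternative added after the data had been seen. Leaving out 1 array gave 0 calls each time by limma among the 32, with at least 3 genes at an unadjusted p under 0.05. Of the 32 genes 20 kept their direction throughout, and 12 near 0 changed sign under at least 1 alternative, none past the threshold. With the mean of probe sets Cdh5 gave 0.012, Egfl7 -0.076, Lyve1 -0.023 and Tm4sf1 0.26. In that fit 7 of the 32 genes had an unadjusted p under 0.05 by limma (6 higher and 1 lower), Sox7 and Tm4sf1 among them. Of all 18193 genes 2826 did (1643 higher and 1183 lower). With array medians centred, which shifted the median of all genes by -0.10, Pecam1 gave -0.066, Egfl7 -0.034, Ramp2 -0.038 and Lyve1 -0.083. With the sex covariate Pecam1 gave -0.061, Egfl7 -0.11, Sox17 -0.076, Ramp2 -0.11 and Lyve1 -0.042, and with the endothelial covariate Pecam1 -0.058, Egfl7 -0.054, Ramp2 -0.042 and Lyve1 -0.0099. Lyve1 gave -0.027 with quantile normalization and -0.022 with array weights. Without OVE26 2 and OVE26 4 together Ramp2 gave -0.014, Lyve1 -0.079 and Ecscr 0.12. With 1 array left out the ranges were -0.19 to 0.22 for Pecam1, -0.10 to 0.19 for Egfl7, -0.11 to 0.24 for Ramp2, -0.046 to 0.093 for Lyve1, -0.26 to 0.17 for Clec14a, -0.16 to 0.18 for Esam, -0.40 to 0.071 for Ecscr, -0.0052 to 0.30 for Sox17, -0.37 to 0.022 for Rasip1 and -0.36 to 0.020 for Erg.

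Over all genes 110 passed. The count was 166 with dim genes filtered, 179 with trend and robust variance, 396 with array weights, 41 with the sex covariate, 375 at a threshold of 0.1 and 8 (without FVB 3) to 367 (without FVB 2) with 1 array left out. Of the 60 other endothelial genes 2 (Sele and Icam1) passed with array weights, 1 (Sele) at a threshold of 0.1, 2 with the endothelial covariate (Heg1 and Nrp1, each part of the mean used as covariate) and 0 to 1 with 1 array left out. Of the vascular ligands 1 (Sema3c) passed with the mean of probe sets, quantile normalization, array medians centred, the sex covariate and every probe set singly, and 0 to 3 with 1 array left out. Same-numbered mice were not paired: correlations of their deviations from group means were 0.13, 0.04, -0.21 and 0.01, and with the replicate block the counts were 0 endothelial genes (limma, 5 at an unadjusted p under 0.05) and 105 genes in all. The cause of these changes was not tested.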
